A study of Mus musculus with 31 samples.

Results

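Cholesterol synthesis genes were followed in whole brain over 31 BXD/TyJ strains of mice, recombinant inbred lines bred from crosses of C57BL/6J and DBA/2J. The list held 8 genes, taken by their symbol in the platform annotation: Hmgcs1, Idi1, Fdps, Fdft1, Sqle, Cyp51, Dhcr7 and Insig1. A probe was found for 7 of them, among 15096 named genes on the arrays. Hmgcs1 had none by symbol or by Entrez identifier and is not described further by value. Each of the 7 rested on 1 probe.

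The groups were the BXD strains and the C57BL/6J strain used as common reference, all males aged 8 weeks. For each strain, whole-brain RNA of 3 animals was pooled and labelled with Alexa Fluor 647, and C57BL/6J whole-brain RNA, labelled with Alexa Fluor 555, was put on the same 2-colour array. There was 1 array per strain and no dye swap, so a strain could not be told apart from its array or a gene effect from a dye effect, and p-values measure the spread between arrays. The channels and titles make strain over C57BL/6J the likely direction of the log ratios, but it was not settled. Signs of means would all turn in the other direction, whereas correlations between genes would stay. A ratio of brain to brain holds no level, so brain markers could not check the tissue, and fewer cells of a type cannot be told apart from less RNA per cell.

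Cells make cholesterol from acetyl-CoA along the mevalonate pathway. Its early steps lead to farnesyl diphosphate, which also feeds protein prenylation, ubiquinone and dolichol. The later steps are committed to sterols and run through squalene and lanosterol to cholesterol. The brain makes nearly all of its own cholesterol, because lipoproteins of the blood hardly cross the blood-brain barrier, and most of it lies in myelin. Early and late genes alike are switched on by SREBP-2, a membrane-bound transcription factor, when sterols are low, and the ER protein INSIG1 holds SREBP and its escort SCAP back when sterols are high.

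RefSeq promoter windows on GRCm38.p6 were available for 5 of the 8 genes: Hmgcs1, Idi1, Cyp51, Dhcr7 and Insig1. Only the 250 bases before the gene start were searched, on both strands. The sequences of Idi1, Cyp51 and Insig1 are shown because Idi1 and Cyp51 had the most negative correlation of all pairs and Insig1 encodes the sterol-dependent regulator. Capitals mark CCAAT or its reverse complement ATTGG, the box bound by NF-Y, a common partner of SREBP. The windows lie at chr13:8885356-8885605 on the plus strand for Idi1, at chr5:4104698-4104947 on the minus strand for Cyp51 and at chr5:28071162-28071411 on the plus strand for Insig1. These are C57BL/6J sequences, and alleles of the BXD strains were not analysed here.
Idi1: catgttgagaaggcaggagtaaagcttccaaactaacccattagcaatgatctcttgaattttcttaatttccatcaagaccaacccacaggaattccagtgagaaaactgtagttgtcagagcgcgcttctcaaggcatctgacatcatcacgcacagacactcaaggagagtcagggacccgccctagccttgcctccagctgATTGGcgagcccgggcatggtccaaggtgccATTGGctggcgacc
Cyp51: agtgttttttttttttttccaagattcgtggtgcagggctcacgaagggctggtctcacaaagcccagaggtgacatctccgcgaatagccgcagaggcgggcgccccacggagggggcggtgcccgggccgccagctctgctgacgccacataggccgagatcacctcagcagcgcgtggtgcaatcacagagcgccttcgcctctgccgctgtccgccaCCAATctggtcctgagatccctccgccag
Insig1: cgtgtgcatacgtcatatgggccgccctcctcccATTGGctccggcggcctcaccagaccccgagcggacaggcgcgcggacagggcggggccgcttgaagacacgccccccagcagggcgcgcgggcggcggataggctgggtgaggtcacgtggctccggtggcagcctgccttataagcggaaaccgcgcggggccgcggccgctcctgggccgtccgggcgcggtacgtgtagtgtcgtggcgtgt

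All 5 genes held CCAAT in a window (Dhcr7 in 1 of its 3), which 37.5% of all genes with a RefSeq window held. All 5 also held GGGCGG, the box bound by Sp1, against 35.4% of genes. The sterol regulatory element in the form TCACNCCAC was found in 1 of the 5, Hmgcs1, at −137 to −129 from the start, and in 1.22% of genes. No 2 matches overlapped in the windows of these 5 genes. A match describes letters and is not a binding site.

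Before the results, the arrays fell into separate groups that the labels do not name. On the first principal component of all features (28.7% of the variance), 7 arrays stood apart, here called set 1 (BXD38, BXD36, BXD28, BXD23, BXD20, BXD8, BXD6). On the second (11.9%), another 8 did, here called set 2 (BXD42, BXD40, BXD39, BXD34, BXD33, BXD27, BXD22, BXD15). The other 16 arrays are called the core. The mean correlation of arrays with the core was 0.412 for set 1 and 0.666 for set 2, and within the core it was 0.753. The sets were found in these data, so differences between them are given as values with no test, and results that rest on them are given within each.

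The mean log2 ratio over the strains differed from 0 for 6 of the 7 genes by limma's moderated test, adjusted over all 21262 features, which 76.1% of features also did. Sqle, Cyp51, Fdps and Insig1 had positive means and Idi1 and Fdft1 negative ones, whereas Dhcr7 did not pass. That is 4 positive, where 42.1% of features were, and 2 negative, where 33.9% were. The median of the means over all named genes was 0.03. When the test asked for more than a 1.2-fold difference, 1 of the 7 passed, Sqle, as 27.9% of features did. Tested within 1 array group, 3 of the 7 passed in set 1 (47.9% of features), all 7 in set 2 (74.8%) and 4 in the core (76.1%). With the array group as a term in the fit, all 7 passed, Dhcr7 included. That fit tested the unweighted mean of the array-group means, not the mean over all arrays. With so many features past the test, these counts say little about the members.

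**Figure D1:**
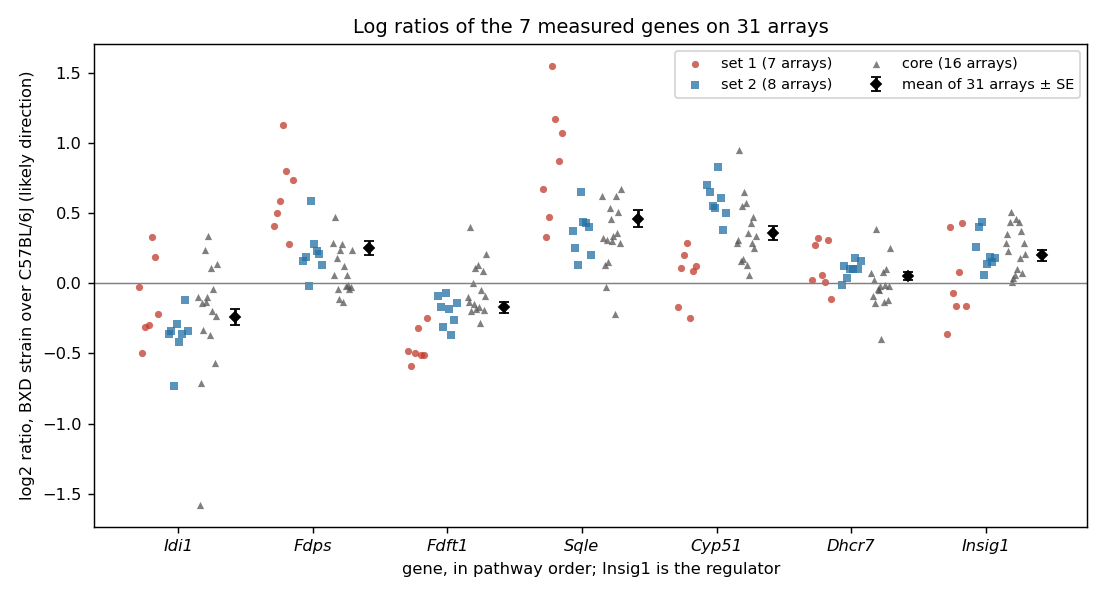
Log2 ratios (likely strain over C57BL/6J, a direction not settled) of the 7 measured genes on each of 31 arrays. Red circles are set 1, blue squares set 2 and grey triangles the core; black diamonds give the mean ± SE over all arrays. Fdps and Sqle lie higher in set 1 than elsewhere, Cyp51 and Fdft1 lower, and 1 core array, BXD2, has an Idi1 value of −1.58.

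Of the early enzymes, Idi1 isomerises isopentenyl diphosphate to dimethylallyl diphosphate, the starter unit of isoprenoid chains. Its log2 ratio ran from −1.58 in BXD2 through a median of −0.23 to 0.34 in BXD16, and it was below 0 on 25 of 31 arrays. The mean was −0.24 ± 0.06 (SE, n = 31; limma adjusted p = 0.00111). BXD2 stood alone at the low end, since the next lowest array, BXD27, had −0.73. Its SD over strains, with the array groups removed, was 0.37, wider than for 91.3% of named genes. Without BXD2 it was 0.26, wider than for 70.3%. The gene's medians were −0.22 in set 1, −0.35 in set 2 and −0.14 in the core, and the ranges of all groups overlapped. With the core arrays alone the mean was −0.23 and did not pass (limma adjusted p = 0.0564).

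Fdps makes farnesyl diphosphate, the branch point of the pathway. Its log2 ratio ran from −0.13 in BXD16 through a median of 0.21 to 1.13 in BXD23, with 23 of 31 arrays above 0. The mean was 0.25 ± 0.05 (SE, n = 31; limma adjusted p = 5.41e-05). Set 1 was high, with values from 0.28 to 1.13 and a mean of 0.64 ± 0.28 (SD, n = 7). Set 2 had a mean of 0.22 ± 0.18 (SD, n = 8) and the core one of 0.10 ± 0.17 (SD, n = 16). Without set 1 the mean over the remaining arrays was 0.14, and it still passed (limma adjusted p = 0.00139).

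Of the late enzymes, Fdft1 (squalene synthase) joins 2 farnesyl diphosphates to squalene, the first step committed to sterols. Its log2 ratio ran from −0.59 in BXD8 through a median of −0.17 to 0.40 in BXD5, with 26 of 31 arrays below 0. The mean was −0.17 ± 0.04 (SE, n = 31; limma adjusted p = 0.000317). The mean differed between the array groups, at −0.45 in set 1 and −0.20 in set 2 against −0.04 in the core, where it did not pass (limma adjusted p = 0.465).

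Sqle (squalene epoxidase) catalyses a rate-limiting oxygenation of squalene. It had the highest mean of the 7 genes, 0.46 ± 0.06 (SE, n = 31; limma adjusted p = 3.66e-08), a ratio of 1.38, and lay above 93.4% of named genes in this respect. In the opposite direction it would have the lowest mean of the 7, −0.46, a ratio of 0.73, above 6.5% of named genes. Values ran from −0.22 in BXD19 through a median of 0.40 to 1.55 in BXD23, and 29 of 31 arrays were above 0. The 4 highest arrays, BXD23, BXD28, BXD38 and BXD36 with 1.55, 1.17, 1.07 and 0.87, were all of set 1, but the groups overlapped. The mean was 0.87 in set 1 and 0.36 in set 2, against 0.34 in the core, where it passed alone (limma adjusted p = 4.51e-05).

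Cyp51 removes a methyl group from lanosterol. Its log2 ratio ran from −0.25 in BXD28 through a median of 0.34 to 0.95 in BXD5, with 29 of 31 arrays above 0 and both negative arrays in set 1. The mean was 0.36 ± 0.05 (SE, n = 31; limma adjusted p = 5.58e-08), a ratio of 1.28. Set 1 was low here, from −0.25 to 0.29, and did not overlap with set 2, from 0.38 to 0.83. Cyp51 was the 1 gene of the 7 for which these 2 sets did not overlap, as for 16.3% of all features. For 0 of the 7 did a set and the core not overlap, against 9.06% of features for set 1 and 4.04% for set 2. The core lay across both, from 0.06 to 0.95 with a mean of 0.37, and passed alone (limma adjusted p = 6.73e-06).

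Dhcr7, which reduces 7-dehydrocholesterol to cholesterol in the last step of one branch, stayed closest to the reference. Its log2 ratio ran from −0.40 in BXD16 through a median of 0.04 to 0.39 in BXD11, with 19 arrays above 0 and 12 below. The mean was 0.05 ± 0.03 (SE, n = 31) with a 95% interval from −0.01 to 0.11 (limma adjusted p = 0.135). The SD over strains was 0.16, and 7.9% of named genes had a smaller one. Without BXD16 the mean was 0.07 and passed (limma adjusted p = 0.0363). With the array group as a term, the unweighted mean of the group means was also 0.07 and passed (limma adjusted p = 0.0305). In the core alone the mean was −0.01.

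Insig1, the regulator, is itself a target of SREBP. Its log2 ratio ran from −0.36 in BXD6 through a median of 0.19 to 0.51 in BXD11, with 27 of 31 arrays above 0. The mean was 0.20 ± 0.04 (SE, n = 31; limma adjusted p = 3.41e-05). All 4 negative arrays were of set 1, whose mean was 0.02 ± 0.30 (SD, n = 7), while all set 2 and core arrays were above 0, with means of 0.23 and 0.25. Thus in set 1 the means of Sqle and Fdps were high and those of Insig1 and Cyp51 low. Insig1 was split there, with 0.40 in BXD8 and 0.43 in BXD36.

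Because the arrays fell into separate groups, correlations over strains were computed from deviations from the mean of each array group. The strains farthest from a gene's median, left out below, were also chosen on these deviations. Among the 21 pairs of measured genes, 10 had a positive and 11 a negative r. A correlation above 0.4 was found in 4 pairs, 19.0% of them, against 3.95% of all pairs of named genes and 4.05% of pairs whose only probes lay at the first place in runs of 8 spots. One below −0.4 was found in 2 pairs, 9.52%, against 3.58% and 3.44%. With the first 3 principal components removed in place of the array groups, 2 of the 21 pairs were above 0.4, against 3.27% of all pairs of named genes, and 0 below −0.4, against 3.09%. The pairs share genes, so they are not independent, and 0.4 was chosen after the values were seen. In permutation tests of strains within array groups (two-sided), 5 pairs had an unadjusted p under 0.05 and 0 an adjusted p under 0.05 over the 21 pairs. By Spearman's rho, 2 pairs passed after adjustment.

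**Figure D2:**
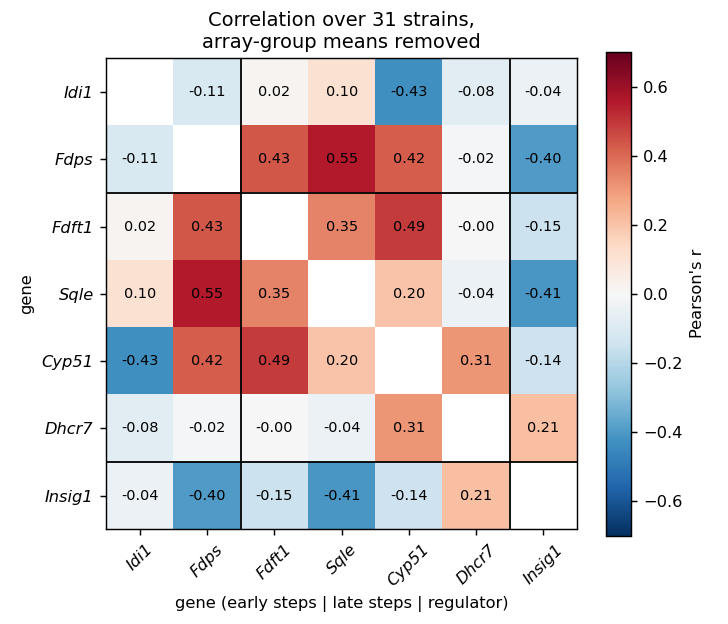
Pearson's r over 31 strains for each pair of genes, after the mean of each array group was removed; black lines part early steps, late steps and the regulator. Fdps, Fdft1, Sqle and Cyp51 are positively correlated with each other (0.20 to 0.55), Idi1 and Cyp51 have −0.43, and Insig1 has −0.40 with Fdps and −0.41 with Sqle. Over all arrays with no array-group term, r was negative for Fdps with Fdft1 and Cyp51 and for Sqle with Fdft1 and Cyp51.

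The highest correlation joined Fdps and Sqle, enzymes on either side of the squalene synthase step. It was r = 0.553 over 31 strains (permutation p = 0.00538, adjusted p = 0.0845) and rho = 0.595 (permutation p = 0.00147, adjusted p = 0.0288). BXD23 was highest in both genes within set 1 and BXD33, with 0.59 and 0.65, was highest in both within set 2. Within the array groups, r was 0.753 in set 1 (n = 7; exact permutation p = 0.0484, adjusted p = 0.424) and 0.931 in set 2 (n = 8; exact permutation p = 0.00057, adjusted p = 0.0120). In the 16 core arrays it was 0.214 (permutation p = 0.425). The difference between the array groups was not tested. Without BXD23 and BXD33, the strains whose deviations in Fdps were farthest from their median, r was 0.342 (permutation p = 0.112), so the relation rested in part on these strains. With the first 3 principal components removed in place of the array groups, r was 0.568 (permutation over all strains, p = 0.00078, adjusted p = 0.0164). Fdps was 61st among named genes in likeness to Sqle, and Sqle was 165th in likeness to Fdps.

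Fdft1 and Cyp51 came next at r = 0.489 (permutation p = 0.0110, adjusted p = 0.0845), with rho = 0.314 (permutation p = 0.0985). BXD5 was highest in both genes, at 0.40 and 0.95. Without BXD5 r was 0.256, and without BXD5 and BXD32, the strains whose deviations in Fdft1 were farthest from their median, it was 0.281 (permutation p = 0.162). With the first 3 components removed it was 0.431 (permutation p = 0.0150, adjusted p = 0.157). Within the groups r was 0.362 in set 1 and 0.209 in set 2, against 0.567 in the core.

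Fdps and Fdft1, consecutive enzymes, had r = 0.433 (permutation p = 0.0121, adjusted p = 0.0845) and rho = 0.258 (permutation p = 0.164). It was positive in all 3 groups, at 0.606 in set 1, 0.471 in set 2 and 0.410 in the core. Without BXD23 and BXD33 it was 0.374 (permutation p = 0.0632). Removing the first 3 components gave 0.174 (permutation p = 0.348). Over all arrays with no array-group term, r was −0.360; set 1 was high in Fdps and low in Fdft1.

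Idi1 and Cyp51 had the most negative r, −0.428 (permutation p = 0.0389, adjusted p = 0.163), and rho = −0.553 (permutation p = 0.00274, adjusted p = 0.0288). It was negative in each group, at −0.703 in set 1, −0.325 in set 2 and −0.384 in the core. Leaving out BXD2, the array with the lowest Idi1, gave −0.672 (adjusted p = 0.00357, permutation within array groups). Without BXD2 and BXD16, the strains whose deviations in Idi1 were farthest from their median, it was −0.647 (permutation p = 0.00051, adjusted p = 0.0107). With the first 3 components removed it was −0.242 (permutation p = 0.192, adjusted p = 0.504). The lowest Idi1 array, BXD2, thus made the correlation less negative.

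Insig1 had negative correlations with Sqle and Fdps, also after the array groups were removed. With Sqle it had r = −0.410 (permutation p = 0.0733, adjusted p = 0.192) and rho = −0.406 (permutation p = 0.0434, adjusted p = 0.304). With Fdps it had r = −0.396 (permutation p = 0.0667, adjusted p = 0.192) and rho = −0.373 (permutation p = 0.0617). Within set 2, r was −0.807 with Sqle (n = 8; exact permutation p = 0.0133, adjusted p = 0.132) and −0.761 with Fdps (n = 8; exact permutation p = 0.0189, adjusted p = 0.132). In set 1 these were −0.309 and −0.407, and in the core −0.437 and −0.247. Without the 2 strains farthest in the enzyme's deviations they were −0.321 with Sqle and −0.308 with Fdps. With the first 3 components removed they were −0.396 (adjusted p = 0.195) and −0.369 (adjusted p = 0.212). Neither pair passed after adjustment over the 21 pairs.

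**Figure D3:**
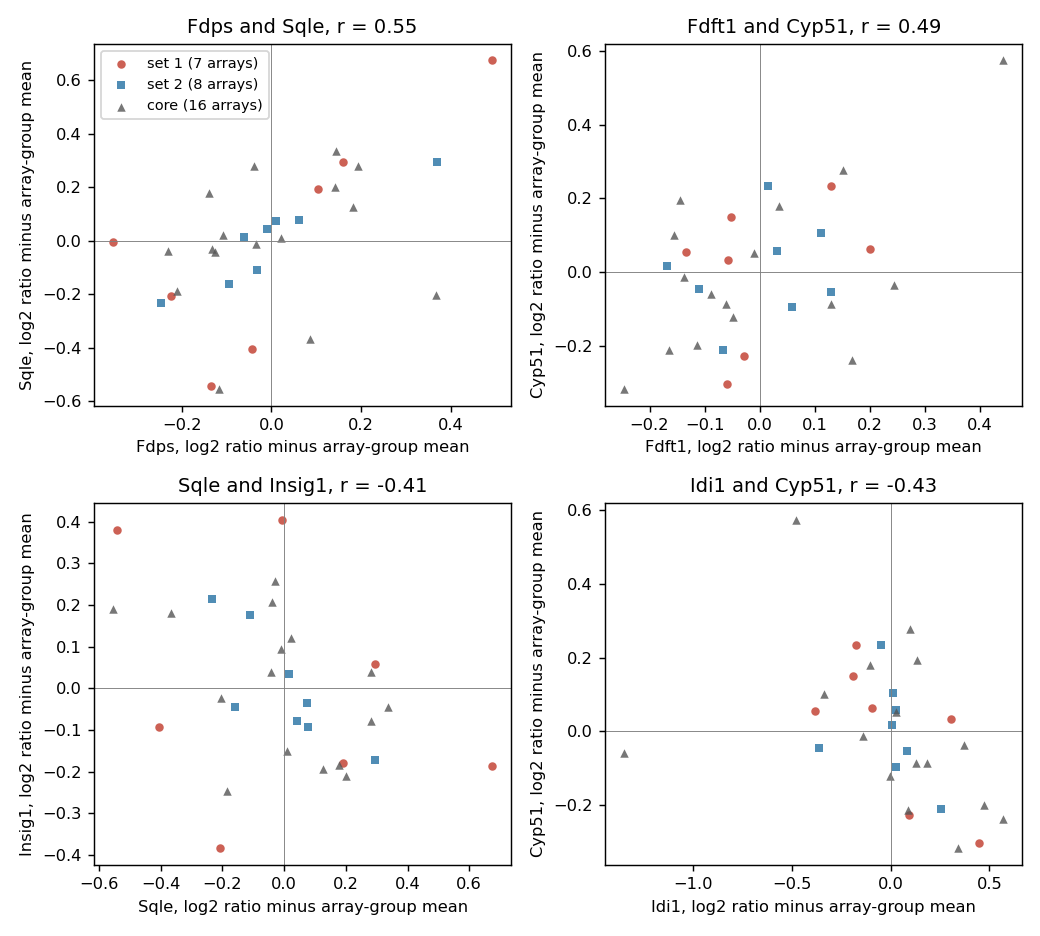
Deviations of log2 ratios from the array-group mean for 4 pairs of genes, 1 point per strain, in the colours and shapes of the array groups. The Fdps and Sqle panel rises along most points with BXD23 at the upper right; in the Fdft1 and Cyp51 panel BXD5 lies alone at the upper right; in the Idi1 and Cyp51 panel BXD2 lies alone at the left.

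Early and late steps were set side by side by mean correlation, which carries no test because the genes were chosen as a list. The late enzymes Fdft1, Sqle, Cyp51 and Dhcr7 had a mean r of 0.217 ± 0.101 (jackknife SE over strains) over 6 pairs, with 4 of the 6 positive. Within the array groups it was 0.032 in set 1 and 0.023 in set 2, against 0.335 in the core. Early against late enzymes gave 0.126 ± 0.083 over 8 pairs, of which 5 were positive, and 0.058 in set 1 and 0.310 in set 2, against 0.130 in the core. Within the early steps only Idi1 and Fdps could be paired, at −0.108 ± 0.187, with −0.191 in set 1 and 0.525 in set 2, against −0.207 in the core. Insig1 against the 6 enzymes gave −0.156 ± 0.108, with 5 of 6 negative; Dhcr7 was the exception at 0.210. The mean was −0.078 in set 1 and −0.454 in set 2, against −0.171 in the core. No error was computed for the difference between the mean of the late pairs and that of early against late, and it was not tested. Fdps had r from 0.423 to 0.553 with Fdft1, Sqle and Cyp51, whereas Idi1 had −0.428 to 0.104 with them. With Dhcr7, Fdps had −0.016 and Idi1 −0.077. With the first 3 components removed, Fdps had 0.568 with Sqle but 0.174 with Fdft1 and 0.053 with Cyp51. Idi1 then had 0.195 with Fdft1, 0.157 with Sqle and −0.242 with Cyp51.

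In levels of the log ratio, the mean of the early enzymes Idi1 and Fdps was below that of the 4 late enzymes in 21 of 31 strains. It would be above it in those 21 in the opposite direction. This early mean joins genes of opposite sign, with −0.24 for Idi1 and 0.25 for Fdps. Of early enzymes that were not members, Pmvk had 0.68, Mvd 0.20 and Mvk, named after its value was seen, −0.06. They are not in the early mean, so the comparison holds for Idi1 and Fdps alone. The difference of early minus late ran from −0.86 in BXD2 through a median of −0.17 to 0.46. It averaged 0.11 in set 1 and −0.29 in set 2, against −0.23 in the core. The sign of the group mean thus moved with the array group, but the median in set 1 was only 0.04. Values there ran from −0.03 to 0.46, those of set 2 from −0.48 to −0.11 and those of the core from −0.86 to 0.19.

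The genes with the pattern most like each member, by r with array groups removed over 31 strains, held no other member. They were Psd3 (0.803) and Nfu1 (0.723) for Idi1, Wipi2 (0.761) and Ybx2 (0.746) for Fdps, and Ppa1 (0.764) and Rpusd4 (0.746) for Fdft1. For Sqle they were Tgm1 (0.698) and Thg1l (0.667), and for Cyp51 5830428M24Rik (0.811) and Elane (0.794). For Dhcr7 they were Bola2 (0.701) and Zfp871 (0.685), and for Insig1 Stag3 (0.690) and Sult1c2 (0.685). These are the highest values over all named genes and carry no test. Rpusd4 was measured at the eighth place in the runs of 8 spots, and Wipi2 in part.

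**Figure D4:**
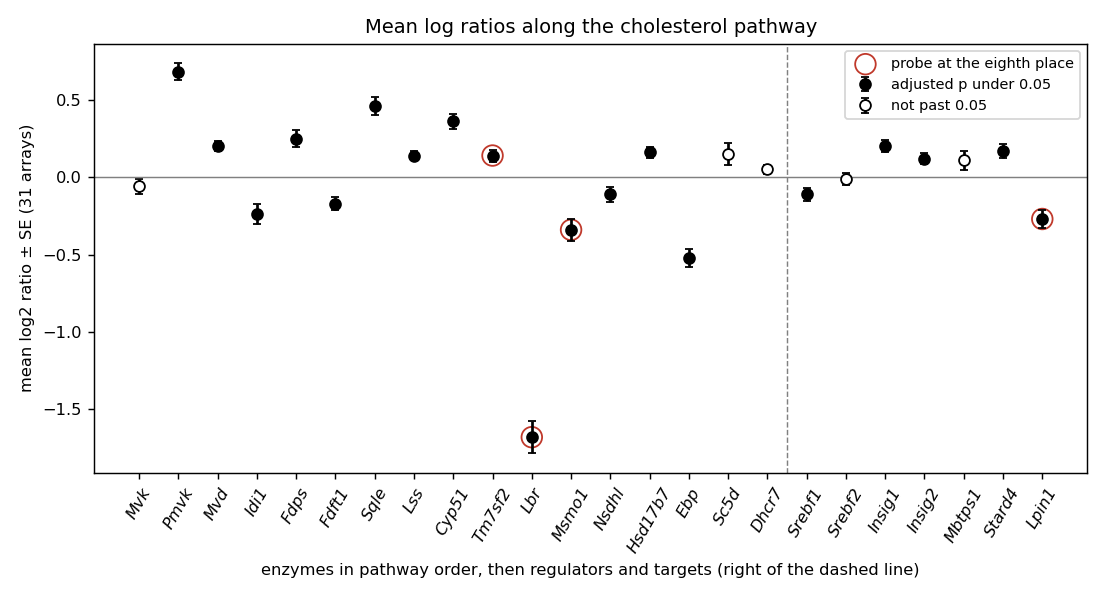
Mean log2 ratio ± SE over 31 arrays for the measured enzymes of cholesterol synthesis in pathway order and, right of the dashed line, regulators and targets of the pathway. Filled points passed limma's test, open points did not, and red circles mark probes at the eighth place in the runs of 8 spots. Means of both signs are mixed along the pathway, from −1.68 for Lbr to 0.68 for Pmvk.

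Along the whole synthesis pathway, 17 of 21 listed enzymes were measured, and of the 11 that were not members 5 were positive, 4 negative and 2 did not pass. Over all features 42.1% were positive and 33.9% negative. Pmvk (phosphomevalonate kinase), an early enzyme, had a mean log2 ratio of 0.68 ± 0.055 (SE, n = 31) with all 31 arrays above 0, and Mvd, which makes isopentenyl diphosphate, had 0.20 ± 0.031. Ebp, a sterol isomerase, had −0.52 ± 0.058. Lbr, a lamin B receptor with sterol reductase activity, had −1.68 ± 0.103 and no array above 0, but its probe lay at the eighth place of the runs of 8 spots. Msmo1 (−0.34) and Tm7sf2 (0.14), named for their place, also had eighth-place probes. None of the 7 members lay there. Of them 5 lay at the first place, Cyp51 at the second and Idi1 at the fifth. Subtracting the median of each place in the runs left Sqle at 0.37, Cyp51 at 0.28, Fdps at 0.16 and Insig1 at 0.10. Idi1 was then at −0.29, Fdft1 at −0.27 and Dhcr7 at −0.04, and the same members passed as before. Signs were thus mixed along the pathway, and the median of the 17 means was 0.14.

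Of the other 6 regulators and SREBP targets 2 were positive and 2 negative (42.1% and 33.9% of all features), and 2 did not pass. Stard4, a sterol carrier, had a mean log2 ratio of 0.17 ± 0.046 and Insig2, the second INSIG, 0.12 ± 0.035. Srebf1, encoding the SREBP of fatty acid synthesis, had −0.11 ± 0.043 with 2 arrays above 0, and Lpin1, with an eighth-place probe, −0.27 ± 0.059. Srebf2, named here after its value was seen because it encodes SREBP-2, averaged −0.01 and did not pass (limma adjusted p = 0.910); its probes gave −0.20 and 0.19.

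Of 7 genes on the branches from farnesyl diphosphate, 3 were positive and 4 negative (42.1% and 33.9% of all features). Fnta, the shared subunit of the prenyltransferases, had a mean log2 ratio of 0.63 ± 0.040 and was above 0 on all 31 arrays. Ggps1, which makes geranylgeranyl diphosphate, had −0.60 ± 0.078 on an eighth-place probe, Pggt1b, a prenyltransferase subunit, −0.38 ± 0.051 and Dhdds, of dolichol synthesis, −0.21 ± 0.027. Of 12 genes of cholesterol turnover and transport, 3 were positive, 4 negative and 5 did not pass, so that 7 passed where 76.1% of all features did. Cyp46a1, the neuronal enzyme that clears brain cholesterol, had 0.33 ± 0.055 and the lysosomal exporter gene Npc1 0.44 ± 0.061. The sterol receptor gene Nr1h3 had −0.66 ± 0.080 and the efflux transporter gene Abcg4, at the eighth place, −0.44 ± 0.029. Abcg1 (−0.64) and Lrp1 (0.22), named for their place, also had eighth-place probes. Of 9 genes of fatty acid synthesis, 6 were positive and 2 negative (42.1% and 33.9% of all features), and 1 did not pass. Elovl6, an elongase, had 0.30 ± 0.038, the desaturase genes Fads1 and Scd1 had 0.31 ± 0.053 and −0.60 ± 0.053, and Acaca had −0.45 ± 0.038, with −0.24, −1.23 and 0.11 for its 3 probes.

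Cell-type markers were set beside the members, since myelin-forming cells, astrocytes and neurons all make cholesterol. In 35 relations between the 7 genes and the mean log2 ratio of 5 marker lists, with array groups removed, 4 had an unadjusted permutation p under 0.05 and none passed after adjustment. Here the 2 farthest strains were chosen on the deviations of the marker-list mean, not on those of the gene. Endothelial markers (8 measured of 8, list mean from 0.0126 to 0.519) had r = 0.429 with Cyp51 (rho = 0.421, permutation p = 0.0209, adjusted p = 0.308; 0.358 without the 2 farthest strains). With Fdps they had r = 0.391 (rho = 0.362, permutation p = 0.0264; 0.313 without the 2 farthest) and with Sqle r = 0.379 (rho = 0.358, permutation p = 0.0286; 0.356 without them). Neuronal markers (9 of 10, list mean from −0.258 to 0.370) had r = 0.424 with Sqle (rho = 0.389, permutation p = 0.0352, adjusted p = 0.308; 0.405 without the 2 farthest). Oligodendrocyte and myelin markers (11 of 12, list mean from −0.0258 to 0.478) had r = 0.371 with Fdps (rho = 0.403, permutation p = 0.0896, adjusted p = 0.526; 0.490 without the 2 farthest). With Sqle they had r = 0.395 (rho = 0.358, permutation p = 0.0902, adjusted p = 0.526; 0.433 without the 2 farthest). The part of these cell types in the correlation of Fdps and Sqle was not tested. For astrocyte markers (10 of 10, list mean from −0.470 to 0.130) r lay between −0.194 and 0.170, and for microglial markers (9 of 10, list mean from −0.453 to 0.0318) between 0.0280 and 0.225. By limma's test against 0, positive and negative markers numbered 2 and 4 for astrocytes and 2 and 3 for microglia. They numbered 8 and 1 for oligodendrocytes and myelin, 4 and 2 for neurons and 6 and 0 for endothelium. Over all features 42.1% were positive and 33.9% negative. Map2, Aldh1l1, Cx3cr1 and P2ry12 had eighth-place probes. Whether a list mean follows the share of its cell type was not tested.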

How the data were processed

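The deposited table held 1 log2 ratio for each of 23040 spots on 31 arrays, with 0 missing values. R 2.0.0 and limma are named, with no role, per the submitters' processing notes; background correction within arrays was not given in the sources used here. Log base 2 and the direction were taken, not stated. All arrays held the same sorted values (median 0.01), as after quantile normalization between arrays, which removes shifts of whole arrays. The number of arrays limits precision; intensities were not analysed here.

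Symbols came from the platform annotation (16874 probes with 1 symbol, 134 with several, 6032 with none). Averaging probes of a gene gave 21262 features, 15096 of them named. Means were tested against 0 with limma 3.58.1 in R 4.3.3 (intercept, eBayes, two-sided, Benjamini-Hochberg over all features); the reference's own spread is left out. Array groups were set by principal component scores above 0.15. Set 1 scored at least 0.272 on component 1 (other arrays at most 0.0521) and set 2 at least 0.253 on component 2 (others at most 0.0792). Correlations used 100000 permutations of strains within array groups, or all permutations within sets 1 and 2. With the first 3 components removed, or with no array-group term, strains were permuted over all arrays, whatever their array group. These permutations made no allowance for the fitted components. Of 28 listed pairs 21 were measured. They were computed in Python 3.11.15. Procedures were tested on simulated data.

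Named were all members, per member the 2 most similar genes, pairs past the test or among the 3 highest and lowest, and up to 4 other genes of each list by smallest adjusted p. Members, lists and rules were chosen with earlier results of these data known. Alternatives were centring, array groups, probes, spot position, strains left out, and rank correlation.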

Additional observations from a re-analysis of the deposited data

How the results depend on the processing

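The 6 calls among 7 members became 3 in set 1 alone and 1 against a 1.2-fold change. Leaving out 1 strain gave 6 or 7 calls, the added one being Dhcr7 without BXD16; it also passed with the array group as a term, which gave 7 calls. The mean of Dhcr7 turned to −0.01 in the core alone and to −0.04 with the median of each place in the runs of 8 subtracted. Of the member means under alternatives other than leaving out 1 strain, 77 kept direction and side of the threshold, 10 no longer passed, 2 newly passed and 2 turned. Pairs with adjusted p under 0.05 numbered 0 in the main setting, 2 by Spearman's rho, 5 with no array-group term, and 1 each with the first 3 components removed, within set 2 and without the 2 farthest strains. Leaving out 1 strain gave 0 to 3 such pairs, with 1 without BXD2 (Idi1 and Cyp51), 2 without BXD5 (Sqle with Fdps and with Fdft1) and 3 each without BXD14 or BXD16 (Fdps with Fdft1 and with Sqle, and Fdft1 with Cyp51). With no array-group term and with the first 3 components removed, strains were permuted over all arrays. With no array-group term, Fdps had −0.360 with Fdft1 and −0.183 with Cyp51, and Sqle had −0.273 with Fdft1 and −0.277 with Cyp51. Fdps with Sqle then had 0.754 and Fdft1 with Cyp51 0.547. With the first 3 components removed, Sqle had 0.193 with Fdft1 and 0.017 with Cyp51. The mean r within late steps was 0.003 with no array-group term and 0.043 with 3 components removed, and that between early and late steps was 0.005 with no array-group term. Counting Fdft1 with the early steps gave 0.114 within them. The cause of these changes was not tested. Subtracting block or place medians and testing set 1 or set 2 alone were chosen after the data were seen. No paired analysis was possible because each strain had 1 array and the labels give no replicate numbers. Signal over background was not analysed here.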
